A study of Mus musculus with 16 samples.

Results

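Glycolysis, the entry of glucose and the making and export of lactate were followed through 32 named genes in the palate of mouse embryos that lacked Erk2 in the neural crest. A member was represented by the probe set that the platform annotation gives to that gene alone, and by the one with the highest mean where there were several. By this rule 29 of the 32 members had a probe set, among 18194 genes with one in all. Gpi1, Pfkfb1 and Eno1 had none and were not analysed here. The mutants were Erk2 fl/fl; Wnt1-Cre embryos, 3 at embryonic day (E) 13.5 and 5 at E14.5. The controls were Erk2 fl/fl embryos without Cre, again 3 at E13.5 and 5 at E14.5, whose sample titles call them wild-type. All groups are labelled C57BL/6J, and both genotypes carried the floxed alleles. Each of the 16 samples was hybridised to 1 one-colour Affymetrix array. Wnt1-Cre acts in the neural crest, from which most of the palate mesenchyme comes, so other cells of the palate kept an intact gene in the mutants. The labels' extraction protocol names tissue of the palate mesenchyme and the series description names primary cells, so the lysed material is not settled. The number of embryos behind an array is not stated, so a p-value below speaks of the spread among these arrays, which may be technical. The level of the targeted gene was not analysed here.

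Glycolysis splits glucose into pyruvate in the cytosol and yields ATP without oxygen. Glucose enters through the SLC2A carriers, hexokinases trap it as glucose 6-phosphate, and phosphofructokinase sets the pace of the upper pathway. Lactate dehydrogenase turns pyruvate into lactate, which leaves through the SLC16A carriers. Many of these genes are targets of HIF1A, the oxygen-sensitive transcription factor. Growing embryonic tissues are known for a strong use of glycolysis, and ERK signalling is known in other cells to raise several of its enzymes.

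Because HIF1A recognises a short core sequence, the promoter windows of the members were searched for 1 spelling of it, ACGTG. The spelling GCGTG was not searched for and is not marked. The windows ran from 250 bases before to 50 bases after each annotated start, in RefSeq's annotation of GRCm38.p6. The letters ACGTG, or CACGT on the other strand, stood in 21 of 48 member windows (43.8%) from 17 of 31 genes with a window, against 6415 of 32544 windows of all genes (19.7%). Both spellings overlap where the letters CACGTG occur, windows of one gene may overlap, and a match is a description of the letters only. The windows of the 3 genes that led the genotype comparison at E13.5 are shown with the matched letters in capitals, followed by that of Ldha, whose window held more matched positions (5) than any other member's. Aldoc, Pfkfb3 and Ldha have 2 windows each, with 1 and 0, 2 and 1, and 5 and 0 matched positions, and the one with more is shown. Each is written 5′ to 3′ on the strand of the gene.
Aldoc (chr11:78322823-78323122, plus strand): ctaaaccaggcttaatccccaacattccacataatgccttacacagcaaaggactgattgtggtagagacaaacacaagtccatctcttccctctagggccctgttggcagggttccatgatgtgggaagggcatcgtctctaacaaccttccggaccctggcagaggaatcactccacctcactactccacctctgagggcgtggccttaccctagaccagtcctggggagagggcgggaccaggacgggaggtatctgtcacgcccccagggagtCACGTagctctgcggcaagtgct
Pfkfb3 (chr2:11502041-11502340, minus strand): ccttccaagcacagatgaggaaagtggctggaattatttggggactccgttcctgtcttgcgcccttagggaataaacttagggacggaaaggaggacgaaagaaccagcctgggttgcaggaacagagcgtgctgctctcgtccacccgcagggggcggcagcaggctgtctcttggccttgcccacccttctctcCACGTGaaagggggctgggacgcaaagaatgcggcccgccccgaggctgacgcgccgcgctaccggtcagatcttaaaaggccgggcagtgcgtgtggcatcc
Slc2a1 (chr4:119108495-119108794, plus strand): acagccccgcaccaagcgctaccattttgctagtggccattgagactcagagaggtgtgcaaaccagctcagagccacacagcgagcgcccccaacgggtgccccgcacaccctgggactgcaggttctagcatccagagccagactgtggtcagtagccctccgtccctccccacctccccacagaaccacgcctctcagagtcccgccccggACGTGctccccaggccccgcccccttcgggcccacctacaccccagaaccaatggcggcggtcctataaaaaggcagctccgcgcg
Ldha (chr7:46845554-46845853, plus strand): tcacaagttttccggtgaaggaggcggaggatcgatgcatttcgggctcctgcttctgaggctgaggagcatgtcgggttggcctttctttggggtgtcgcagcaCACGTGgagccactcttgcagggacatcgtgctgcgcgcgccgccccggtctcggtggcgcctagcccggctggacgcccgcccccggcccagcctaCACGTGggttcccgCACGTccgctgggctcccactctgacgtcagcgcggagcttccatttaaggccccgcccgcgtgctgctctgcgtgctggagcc
The genotype differences of these genes at E13.5, given below on the log2 scale, were -0.51 for Aldoc, -0.344 for Pfkfb3, -0.142 for Slc2a1 and -0.082 for Ldha. A relation between matched letters and genotype difference was not tested.

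The deposited values are log2 expression levels made by GCRMA, so a difference of 1 is a doubling and values of different probe sets are not compared here. The array medians over all probe sets ran from 3.42 to 3.44 in E13.5 mutants, against 3.39 to 3.40 in E13.5 controls, and from 1.63 to 1.66 over the E14.5 arrays. Tests were run on the genes with a log2 value of 4 or more on 3 or more arrays, in all 11116 genes, 25 of them members. Fbp1, Fbp2, Eno2 and Slc16a3 were measured but stayed below this level. Fbp2, a fructose bisphosphatase of muscle, had 3.20, 3.07 and 3.12 in E13.5 mutants, against 2.70, 2.69 and 2.98 in E13.5 controls. Gapdh was read only from the control probe sets of the array. Arrays number 3 to 5 a group, which limits the precision of every value.

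Markers of several cell types differed in level between the genotypes. All 15 palate mesenchyme markers reached the tested level, as did 11116 of 18194 genes, so this level does not settle the tissue. Their mean was 9.10 to 9.20 in E13.5 mutants, against 9.22 to 9.36 in E13.5 controls. At E14.5 it was 8.76 to 8.91 in mutants, against 8.83 to 8.92 in controls. Skeletal muscle markers (18 of 22 at the tested level, with Myf6, Pax7, Ckm and Ryr1 below it) had a mean of 6.64 to 6.99 in E13.5 mutants, against 6.04 to 6.32 in E13.5 controls. Bone markers had a mean of 4.57 to 5.11 in E13.5 mutants, against 5.37 to 5.67 in E13.5 controls, and of 7.46 to 8.27 in E14.5 mutants, against 8.18 to 8.70 in E14.5 controls. Oral epithelium markers had a mean of 7.83 to 8.15 in E14.5 mutants, against 7.43 to 7.59 in E14.5 controls, and 9 of 16 were higher by the test. The gene Xist was high on all 6 E13.5 arrays, on 3 of 5 E14.5 mutant arrays and on 1 of 5 E14.5 control arrays, so the sexes were unequal at E14.5. In E14.5 batch 1 Xist was 9.55 and 9.67 in mutants, against 0.58 and 1.11 in controls. Genotype and sex therefore cannot be told apart in any batch 1 difference below. In batch 2 each genotype held arrays with high and with low Xist. In bulk samples, fewer cells of a type and less RNA per cell cannot be told apart. Endothelial markers were below 0 for 8 of 9 genes at E14.5, with a median difference of -0.151 and 4 of 9 at an unadjusted p under 0.05, none of them called. Their mean was 5.10 to 5.27 in E14.5 mutants, against 5.23 to 5.53 in E14.5 controls. Cartilage markers were above 0 for 8 of 9 genes at E13.5, with a median difference of 0.558, none of them called. The part of other cell types and of sex in the results below was not tested beyond the fit with a sex term.

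**Figure D1:**
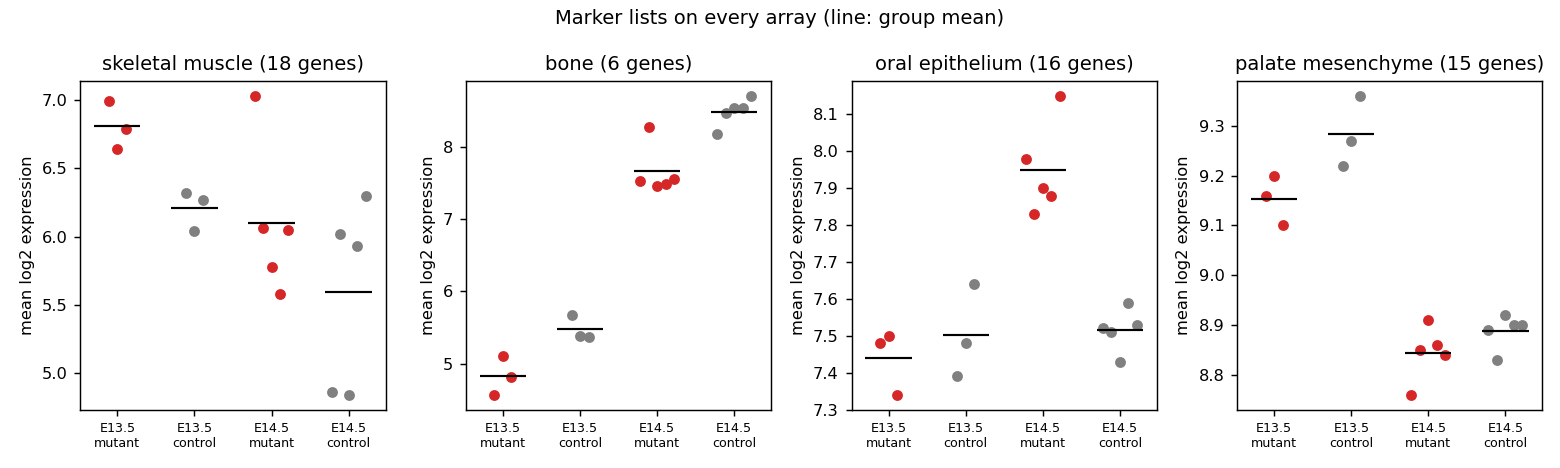
Mean log2 expression of 4 marker lists on each array (points), with the mean of each group (line). Muscle markers lie at 6.64 to 6.99 in E13.5 mutants and at 6.04 to 6.32 in E13.5 controls, and epithelial markers at 7.83 to 8.15 in E14.5 mutants and at 7.43 to 7.59 in E14.5 controls.

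At E13.5 the glycolysis genes of the mutants lay slightly below those of the controls, and none passed the test. Of the 25 members 23 had a lower mean in mutants, and the median difference was -0.075, beside -0.044 over all genes tested, of which 68.5% were lower. The same fit, limma with Benjamini-Hochberg adjustment over all 11116 genes, called 11 genes (0.099%) and 0 members. At an unadjusted p under 0.05 it held 4 members, or 16% of the 25, against 9.54% of all genes, and with arrays centred on the median of the genes tested 2 members (8%), against 7.99%. These fits take 1 spread per gene from all 16 arrays, so an error at E13.5 also holds the spread at E14.5. Fitted by limma on the E13.5 arrays alone, 7 members were under 0.05, a share that was not computed for all genes. The 3 mutant and 3 control arrays did not overlap for 9 members (36%), 8 with mutants below and 1 above, against 17.9% of all genes. The number of lower members depended on the scale, as did that of all genes. With that centring 14 of 25 members (56%) were lower, against 40.8% of all genes. Their median difference was -0.009 beside 0.022 over all genes, and 4 members did not overlap (16%) against 18.1% of all genes. After centring on the median of all probe sets, 24 of 25 were lower, with a median of -0.11 beside -0.081 over all genes. A measure of RNA quality differed between the same arrays. The 5′ minus 3′ signal of Gapdh was -0.418 to -0.364 in E13.5 mutants, against -0.714 to -0.439 in E13.5 controls. The like signal of beta-actin overlapped, at -1.058 to -0.982 in E13.5 mutants, against -1.337 to -1.025 in E13.5 controls. With a term for this beta-actin signal 20 of 25 members were lower. The part of RNA quality was not tested further.

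**Figure D2:**
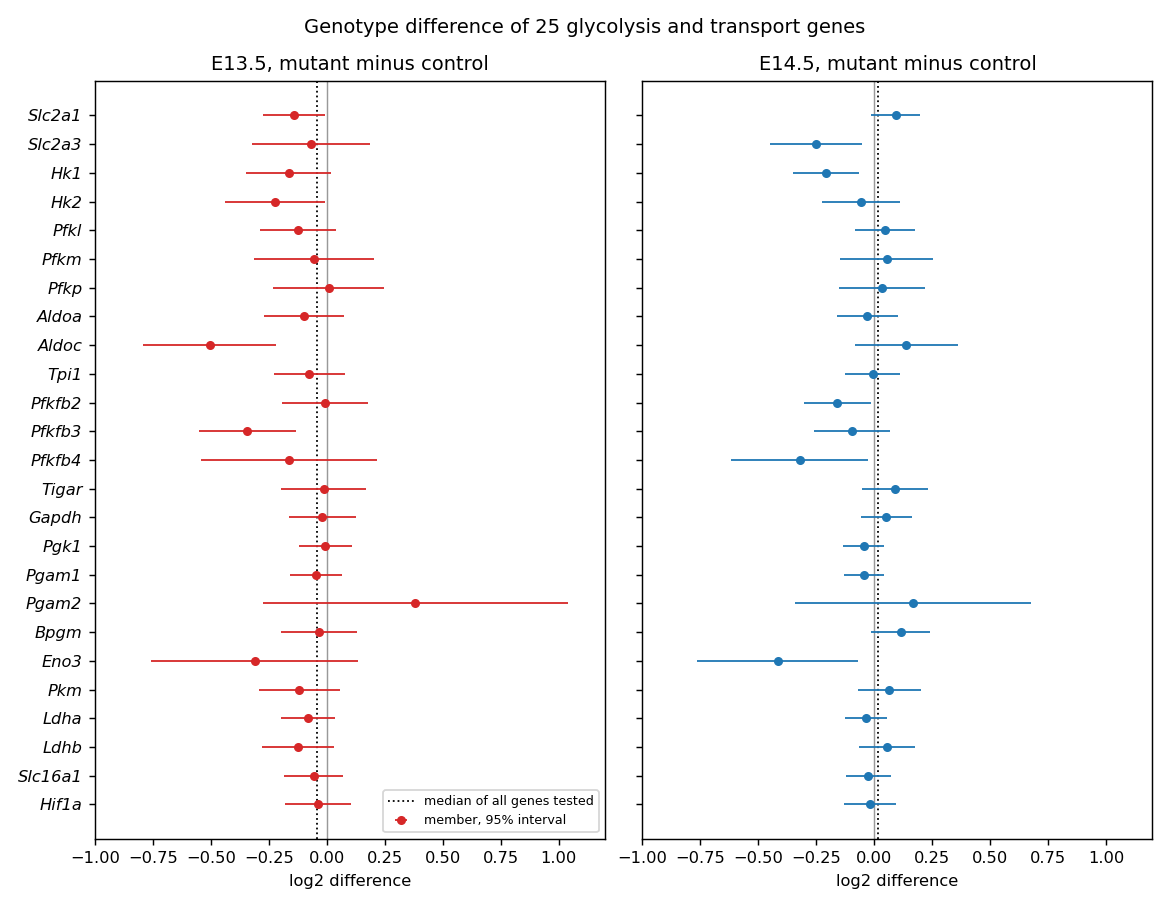
Log2 difference of mutants minus controls for the 25 members tested at E13.5 (left) and E14.5 (right), with 95% intervals from the limma fit. The dotted line is the median over all genes tested, -0.044 at E13.5 and 0.015 at E14.5. Aldoc lies at -0.51 at E13.5 and at 0.14 at E14.5.

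Among the carriers that bring glucose in, Slc2a1 encodes GLUT1, the widespread basal carrier. Its log2 values were 9.15, 9.20 and 9.11 in E13.5 mutants, against 9.21, 9.38 and 9.30 in E13.5 controls. All 3 mutant arrays lay below the controls, by a log2 difference of -0.142 ± 0.063 (SE), a fold of 0.906 (95% interval 0.826 to 0.995), with an unadjusted p of 0.0398 and an adjusted p of 0.502 in limma. Slc2a3, which encodes the high-affinity carrier GLUT3, differed by -0.070 ± 0.12, and its arrays overlapped.

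The hexokinases carry out the first step of glucose use in the cell. Hk2, the inducible form, had 7.05, 6.95 and 6.78 in E13.5 mutants, against 7.17, 7.08 and 7.21 in E13.5 controls. The arrays did not overlap, and the difference was -0.224 ± 0.101 (SE), a fold of 0.856, with an adjusted p of 0.507 in limma. Without E13.5 mutant 3 it was -0.149. Hk1, the housekeeping form, had 6.61, 6.50 and 6.43 in E13.5 mutants, against 6.68, 6.69 and 6.67 in E13.5 controls. Again the mutants lay below every control, by -0.164 ± 0.086, with an adjusted p of 0.573 in limma.

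Fructose 2,6-bisphosphate is the strongest activator of phosphofructokinase, and its level is set by the PFKFB enzymes. Pfkfb3, whose product favours its synthesis, had 4.69, 4.68 and 4.53 in E13.5 mutants, against 5.03, 5.03 and 4.87 in E13.5 controls. Each mutant array lay below each control array. The difference was -0.344 ± 0.098 (SE), a fold of 0.788 (95% interval 0.681 to 0.911), with an unadjusted p of 0.00339 and an adjusted p of 0.292 in limma. With array quality weights the difference was -0.369 and passed the test (adjusted p 0.0454), in a fit that called 85 genes in all. The other Pfkfb3 probe set, below the tested level, differed by -0.013 by group means. Pfkfb4 differed by -0.165 ± 0.177 and Pfkfb2 by -0.009 ± 0.087. Tigar, whose product lowers fructose 2,6-bisphosphate, differed by -0.014 ± 0.087.

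In the upper pathway the lead belonged to Aldoc, an aldolase known from brain. It had 6.02, 5.47 and 5.84 in E13.5 mutants, against 6.32, 6.15 and 6.38 in E13.5 controls. The mutants were all lower, with mutant 2 furthest down. The standard deviation was 0.283 in E13.5 mutants and 0.117 in E13.5 controls, against 0.101 and 0.186 at E14.5. The error below draws on all groups. The difference was -0.506 ± 0.135 (SE), a fold of 0.704 (95% interval 0.577 to 0.860), with an unadjusted p of 0.00206 and an adjusted p of 0.237 in limma. Without 1 array at a time it ran from -0.628 to -0.35. The other Aldoc probe set, below the tested level, differed by -0.018 by group means. Aldoa, the main aldolase of most tissues, differed by -0.098 ± 0.080. The phosphofructokinase subunit genes differed by -0.125 ± 0.077 for Pfkl, by -0.055 ± 0.12 for Pfkm and by 0.008 ± 0.11 for Pfkp. Tpi1, the triose phosphate isomerase, differed by -0.075 ± 0.072, and its arrays were barely apart, at 10.456 in the highest mutant and 10.457 in the lowest control.

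In the lower pathway 6 of 7 members had a lower mean in mutants, with a median of -0.033. Gapdh, whose product oxidises the triose phosphate and yields NADH, had 11.08, 10.96 and 11.04 in E13.5 mutants, against 11.03, 11.01 and 11.10 in E13.5 controls, with full overlap and a difference of -0.019 ± 0.067. Pgk1 differed by -0.006 ± 0.054 and Pgam1 by -0.048 ± 0.052. Pkm, the pyruvate kinase of most tissues, differed by -0.119 ± 0.081, Bpgm by -0.033 ± 0.076 and Eno3, the enolase of muscle, by -0.311 ± 0.209. Pgam2, the muscle form of phosphoglycerate mutase, went the other way. It had 6.29, 6.15 and 6.22 in E13.5 mutants, against 6.05, 5.73 and 5.74 in E13.5 controls, a difference of 0.382 ± 0.307 with an adjusted p of 0.742 in limma. That error draws on all groups. The standard deviation of Pgam2 was 0.069 in E13.5 mutants and 0.183 in E13.5 controls, against 0.590 and 0.394 at E14.5. The muscle marker list was higher in the same mutants, with 18 of 18 genes above 0 and a median difference of 0.631, none of them called.

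Of the lactate genes, Ldhb, whose subunit is known from tissues that burn lactate, had 8.88, 9.08 and 8.87 in E13.5 mutants, against 8.996, 9.05 and 9.16 in E13.5 controls. The arrays overlapped, and the difference was -0.124 ± 0.072 with an adjusted p of 0.607 in limma. Without 1 array at a time it ran from -0.194, without E13.5 mutant 2, to -0.077, without E13.5 control 3. Ldha, the muscle-type subunit, differed by -0.082 ± 0.055, and the carrier Slc16a1 by -0.057 ± 0.059. Both had every mutant below every control. Hif1a itself had 9.57, 9.64 and 9.56 in E13.5 mutants, against 9.54, 9.66 and 9.68 in E13.5 controls, a difference of -0.037 ± 0.067 with overlapping arrays.

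**Figure D3:**
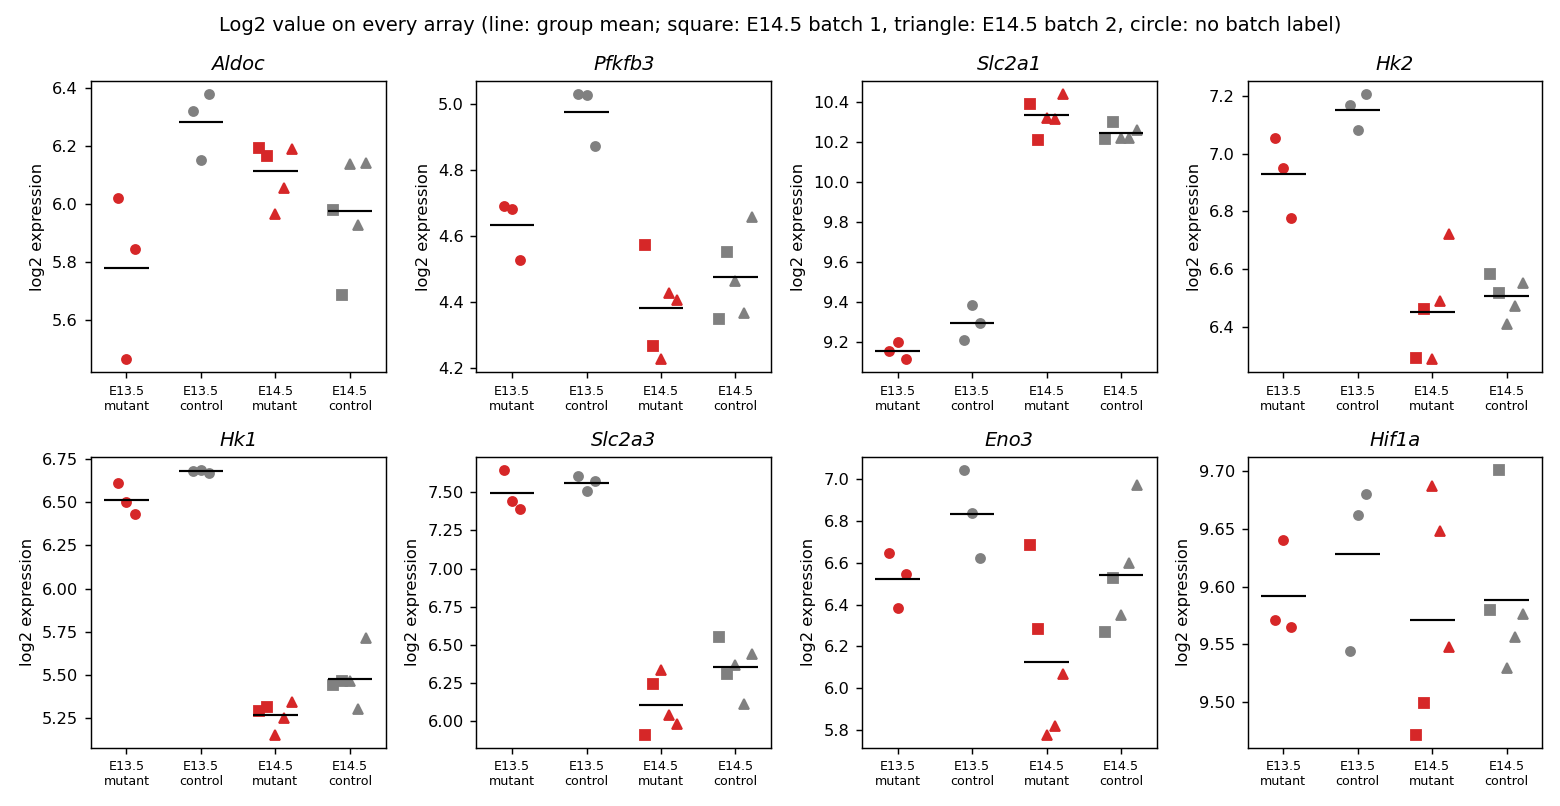
Log2 values of 8 members on every array, with the group mean as a line and the marker shape giving the E14.5 batch. The E13.5 mutants lie below the E13.5 controls for Aldoc, Pfkfb3, Slc2a1, Hk2 and Hk1, and the genotypes overlap at E14.5 in all 8 panels.

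At E14.5 the values as deposited overlapped between the genotypes for every one of the 25 members, so 0% were apart, against 4.41% of all genes. Of the 25 members 14 were lower, with a median difference of -0.018, beside 0.015 over all genes. limma called 292 of all genes (2.63%) and 0 members. At an unadjusted p under 0.05 it held 5 members (20%), all lower, against 17.3% of all genes. Pfkfb2 and Pfkfb4, 2 of these 5, and also Pgam2 and Tigar passed the level filter only through their E13.5 arrays. Without those 4 members it held 3 of 21 (14.3%), against 17.5% of the 8832 genes that pass on E14.5 arrays alone. Ldha differed by -0.035 ± 0.043, Pgk1 by -0.045 ± 0.042, Pgam1 by -0.044 ± 0.041 and Tpi1 by -0.007 ± 0.056. For some enzymes the batches were of opposite sign, at 0.168 in batch 1 and -0.124 in batch 2 for Tpi1, 0.164 and -0.159 for Aldoa, 0.203 and -0.048 for Gapdh, and 0.205 and -0.029 for Pkm. In batch 1 the genotypes also differed in sex. Over the 25 members the 95% interval stayed within 0.5 of 0 for 22, and within 0.25 for 16.

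Hk1 had 5.29, 5.31, 5.15, 5.25 and 5.34 in E14.5 mutants, against 5.44, 5.46, 5.46, 5.30 and 5.71 in E14.5 controls. Only control 4 fell within the range of the mutants. The difference was -0.206 ± 0.066 (SE), a fold of 0.867, with an adjusted p of 0.12 in limma, and it was -0.15 in batch 1 and -0.24 in batch 2. Slc2a3 had 5.91, 6.25, 6.34, 6.04 and 5.98 in E14.5 mutants, against 6.55, 6.31, 6.37, 6.12 and 6.44 in E14.5 controls. The difference was -0.253 ± 0.092 (SE), a fold of 0.839, with an adjusted p of 0.168 in limma. With the values of all its probe sets averaged it was -0.050. By group means its 2 probe sets at the tested level differed by -0.252 and -0.110, and those below that level by 0.149 and 0.013.

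Eno3 had 6.68, 6.28, 5.78, 5.82 and 6.07 in E14.5 mutants, against 6.27, 6.53, 6.35, 6.60 and 6.97 in E14.5 controls, a difference of -0.417 ± 0.162 (SE) with an adjusted p of 0.199 in limma. The batches did not run alike. In batch 1 the difference was 0.087, and in batch 2, where every mutant lay below every control, it was -0.752 with an adjusted p of 0.0460, in a fit that called 128 genes in all. Eno3 and Pgam2 are both muscle genes, and the muscle marker mean at E14.5 ran from 5.58 to 7.03 in mutants, with mutant 1 highest, against 4.84 to 6.30 in controls, with controls 1 and 3 lowest. Pgam2 was highest in mutant 1, at 4.53, and lowest in control 1, at 2.81, but control 3 was the highest of the controls, at 3.78. The part of muscle in both genes was not tested.

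Pfkfb2 and Pfkfb4 differed by -0.159 ± 0.067 and -0.322 ± 0.137, at levels below 4 on every E14.5 array. Pfkfb2 had 3.08, 3.16, 3.22, 3.39 and 3.33 in E14.5 mutants, against 3.48, 3.56, 3.33, 3.29 and 3.33 in E14.5 controls. The difference was -0.394 in batch 1 and -0.002 in batch 2. Pfkfb4 had 2.95, 2.80, 2.61, 2.98 and 2.63 in E14.5 mutants, against 3.18, 2.86, 3.03, 2.81 and 3.68 in E14.5 controls, where control 5 stood above the rest. Without 1 array at a time its difference ran from -0.404 to -0.167, the last without control 5. Their adjusted p-values in limma were 0.240 and 0.246.

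Bpgm, which makes 2,3-bisphosphoglycerate, had 6.79, 6.79, 6.70, 6.79 and 6.70 in E14.5 mutants, against 6.77, 6.53, 6.66, 6.77 and 6.49 in E14.5 controls. Its difference of 0.114 ± 0.059 had an adjusted p of 0.351 in limma, and ran from 0.071 without control 2 to 0.152 without control 4. Gapdh had 10.70, 10.58, 10.52, 10.50 and 10.59 in E14.5 mutants, against 10.43, 10.44, 10.54, 10.59 and 10.63 in E14.5 controls, a difference of 0.052 ± 0.052. Hif1a had 9.47, 9.50, 9.69, 9.65 and 9.55 in E14.5 mutants, against 9.58, 9.70, 9.53, 9.56 and 9.58 in E14.5 controls, a difference of -0.018 ± 0.052. Among the other enzymes, Pgam2 differed by 0.169 ± 0.238 (1.01 in batch 1 and -0.393 in batch 2), Pkm by 0.065 ± 0.063, Aldoa by -0.030 ± 0.062 and Hk2 by -0.056 ± 0.078. The phosphofructokinase subunit genes differed by 0.047 ± 0.060 for Pfkl, 0.054 ± 0.094 for Pfkm and 0.035 ± 0.086 for Pfkp. Ldhb differed by 0.054 ± 0.056, Slc16a1 by -0.025 ± 0.045 and Tigar, below 4 on every E14.5 array, by 0.088 ± 0.067. With a term for sex within E14.5, Hk1 differed by -0.159, Slc2a3 by -0.238, Pfkfb4 by -0.257 and Pfkfb2 by -0.087.

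The genotype effect was next compared between stages, by the interaction term of the same fit, which called 13 of all genes (0.117%) and 0 members. Aldoc had the largest member difference. At E14.5 it had 6.19, 6.16, 5.96, 6.05 and 6.19 in mutants, against 5.98, 5.69, 6.14, 5.93 and 6.14 in controls, higher on average in mutants, unlike at E13.5. That E14.5 difference was 0.138 ± 0.104 (SE), with an adjusted p of 0.532 in limma. By batch it was 0.344 in batch 1 and 0.001 in batch 2. The E14.5 effect minus the E13.5 effect was 0.644 ± 0.170 (SE), with an unadjusted p of 0.00195 and an adjusted p of 0.196. Slc2a1 had 10.39, 10.21, 10.32, 10.31 and 10.44 in E14.5 mutants, against 10.22, 10.30, 10.22, 10.22 and 10.26 in E14.5 controls, again higher on average in mutants. Its interaction was 0.234 ± 0.079, with an unadjusted p of 0.0103 and an adjusted p of 0.332. Pfkfb3 had 4.57, 4.27, 4.23, 4.43 and 4.41 in E14.5 mutants, against 4.35, 4.55, 4.46, 4.37 and 4.66 in E14.5 controls, and an interaction of 0.247 ± 0.124 with an adjusted p of 0.511. The median interaction of the 25 members was 0.068, beside 0.061 over all genes.

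Probe sets of the same gene gave a further reading of these small differences. Of the 65 member probe sets, 45 reached the tested level, and 36 of these had a lower mean in mutants at E13.5, against 20 of 45 at E14.5. In 10 members with several such probe sets (30 in all), all probe sets of a gene had one sign in 5 genes at E13.5 and in 7 genes at E14.5. The 3 probe sets of Slc2a1 ran from -0.246 to -0.142 at E13.5 and from 0.092 to 0.130 at E14.5. The 4 of Ldhb ran from -0.124 to -0.011 at E13.5 and from 0.022 to 0.063 at E14.5. The 3 of Tpi1 were lower in mutants at E13.5, from -0.099 to -0.075, and the 2 of Slc2a3 at both stages. Gapdh had 1 of 3 probe sets below 0 at E13.5, with a range of -0.019 to 0.127, and all 3 above 0 at E14.5. These probe sets read the same RNA on the same arrays and are no replicates.

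**Figure D4:**
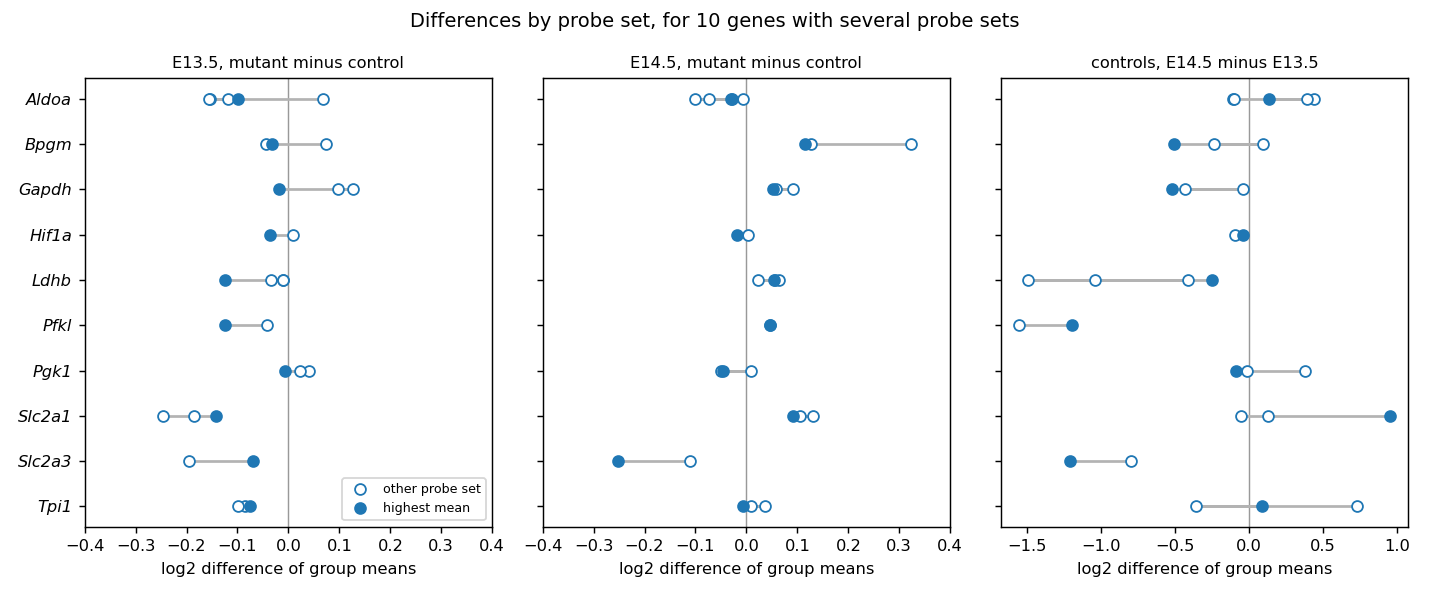
Log2 difference of group means for every probe set at the tested level of the 10 members with several, by genotype at E13.5 (left) and E14.5 (middle) and by stage in controls (right). The filled point is the probe set with the highest mean. All 3 points of Slc2a1 lie below 0 at E13.5 and above 0 at E14.5, and its stage difference spans -0.056 to 0.949.

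Stage could be described only within limits. The value distributions differ between the stages, as the array medians show, and whether the stages were normalised together is not given in the sources used here, so stage and processing cannot be told apart. Sex differed between the stages too. Xist was high on 3 of 3 arrays in each E13.5 group, against 3 of 5 mutant and 1 of 5 control arrays at E14.5. As deposited, limma called 7 members higher and 14 lower at E14.5 than at E13.5 in mutants (85.3% of all genes called), and 4 higher and 15 lower in controls (86.5% of all genes called). Pfkfb2, Pfkfb4, Pgam2 and Tigar, which passed the filter only through E13.5, were favoured by it to be lower at E14.5. Without them 7 were higher and 10 lower in mutants, and 4 higher and 11 lower in controls. Of the 8832 genes that pass on E14.5 arrays alone, 1484 were called higher and 5727 lower in mutants. In controls 1294 of these genes were called higher and 6050 lower. With arrays centred on their medians 20 of 25 were higher and 3 lower in both genotypes, beside 8904 higher and 1334 lower of all genes in mutants (92.1% called) and 8649 and 1522 in controls (91.5%). With centring on the genes tested 13 were higher and 8 lower in mutants (82% of all genes called), and 12 and 8 in controls (82.3%). Slc2a1, Pgam1, Ldha and Pfkp were called higher at E14.5 in both genotypes, as deposited and with arrays centred on their medians. As deposited the differences were 1.18, 1.09, 0.337 and 0.268 in mutants. In controls they were 0.948, 1.08, 0.290 and 0.241. The probe sets of one gene disagreed here. For Slc2a1 the stage difference in controls ran from -0.056 to 0.949 over 3 probe sets, and for Tpi1 from -0.357 to 0.726 over 3.

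Neighbouring pathways were read from lists of genes outside the 32. At E13.5 limma called 0 of their genes. At an unadjusted p under 0.05 it held 3 of 15 hypoxia-induced genes, 3 of 8 transcription factors, 1 each in the lists of other sugar carriers, pyruvate entry, glycogen and HIF regulators, and 0 of 6 pentose phosphate genes, against 9.54% of all genes. With centring on the genes tested it held 2 of 15 hypoxia-induced genes, 0 of 8 transcription factors and 2 of 6 pentose phosphate genes, against 7.99%. The largest effects in these lists by p were Pdp2, a phosphatase that activates pyruvate dehydrogenase, at -0.443 ± 0.116, Higd1a, a hypoxia-induced mitochondrial protein, at -0.241 ± 0.063, and Pygl, the liver form of glycogen phosphorylase, at -0.332 ± 0.103, with adjusted p-values in limma of 0.227, 0.227 and 0.353. Of the hypoxia-induced genes outside glycolysis 13 of 15 were lower, with a median of -0.106, and of the glycogen genes 10 of 11, with a median of -0.063. Of the other sugar carriers and glycolysis genes 6 of 11 were lower (median -0.022), of the genes of pyruvate entry 8 of 11 (-0.108), of the pentose phosphate genes 2 of 6 (0.043), of the HIF pathway regulators 6 of 10 (-0.026) and of the other transcription factors of glycolysis 7 of 8 (-0.095). These medians stand beside -0.044 over all genes, and with centring on the genes tested 10 of 15 hypoxia-induced genes (median -0.041) and 5 of 11 glycogen genes (median 0.003) were lower.

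At E14.5 limma called 1 of 11 genes higher in the list of other sugar carriers and glycolysis genes, 1 of 11 lower in the glycogen list and 2 of 15 lower in the hypoxia list, against 2.63% of all genes. In the lists of pyruvate entry (11 genes), the pentose phosphate pathway (6), HIF pathway regulators (10) and transcription factors (8) it called 0, with 2, 1, 0 and 4 at an unadjusted p under 0.05. The lists of other sugar carriers, glycogen and hypoxia held 4 of 11, 4 of 11 and 6 of 15, against 17.3% of all genes. Emb, embigin, a chaperone of the lactate carriers, had 5.87, 5.88, 5.73, 5.61 and 5.86 in mutants, against 5.11, 5.12, 5.35, 5.17 and 5.66 in controls. Only control 5 reached the range of the mutants, and the difference was 0.508 ± 0.100 (SE), with an adjusted p of 0.0187. Pgm1, phosphoglucomutase, which links glycogen to glycolysis, had 5.45, 5.50, 5.44, 5.47 and 5.49 in mutants, against 5.67, 5.75, 5.78, 5.74 and 5.78 in controls. The arrays did not overlap, and the difference was -0.270 ± 0.039, with an adjusted p of 0.00306.

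P4ha1 and P4ha2, prolyl hydroxylases of collagen that hypoxia induces, were the other two. P4ha1 had 7.65, 8.03, 7.61, 7.71 and 7.63 in mutants, against 8.05, 8.08, 8.07, 8.07 and 8.11 in controls, without overlap, and a difference of -0.351 ± 0.068 with an adjusted p of 0.0166 in limma. P4ha2 had 7.08, 7.38, 7.29, 7.19 and 7.27 in mutants, against 7.66, 7.83, 7.33, 7.58 and 7.61 in controls, and a difference of -0.359 ± 0.087 with an adjusted p of 0.0449. Leaving out 1 of the 16 arrays in turn ended the call of P4ha2 in 13 fits, of Emb without E14.5 mutant 1 (0.47, adjusted p 0.0598) or control 2 (0.47, adjusted p 0.0550), and of P4ha1 without E14.5 mutant 1 (-0.313, adjusted p 0.0545). The call of Pgm1 held in all 16 of these fits. In batch 2 alone Emb differed by 0.341 (adjusted p 0.249), and in batch 1 alone P4ha1 differed by -0.225 (adjusted p 0.322). The bone markers were lower in the same mutants, with 4 of 6 called, and their part in these values was not tested.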

How the data were processed

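RNA of the palate was measured on 16 one-colour Affymetrix arrays in 4 groups by stage and genotype. Per the submitters' processing notes the authors made the deposited log2 expression values with GCRMA, whose version and settings no source used here gives. Of 45101 probe sets, the platform annotation gave 1 gene for 34958, several for 932 and none for 9211. Of several probe sets of a gene, that with the highest mean stood for it, and genes with at least 3 arrays at a log2 value of 4 or more were tested.

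Differences were fitted with limma 3.58.1 in R 4.3.3 on all 16 arrays, with 4 groups and the labelled E14.5 batch (replicates 1 and 2 in batch 1, 3 to 5 in batch 2) as a term. p-values were moderated by eBayes and adjusted by Benjamini-Hochberg over 11116 genes, with calls under 0.05. An error after ± is a standard error, from 1 spread per gene over all 16 arrays. The steps were tested on simulated data. Python 3.11.15 and matplotlib 3.10.9 drew the plots. The members and lists were chosen with earlier results of these data known. Values on every array are given for the 6 members with the smallest unadjusted p at each stage, the 3 in the interaction, Hif1a and Gapdh, and for a few others chosen after their values were seen. Arrays of the same stage and replicate number did not deviate together (correlations from -0.445 to 0.166), so the numbers were not used to pair arrays. Results were recomputed under 29 other settings, 16 of which left out 1 array, and under 3 more added after the data were seen. RefSeq windows of GRCm38.p6 were searched for ACGTG and CACGT alone. No sequence from the arrays was used.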

Additional observations from a re-analysis of the deposited data

Results flagged for a closer look

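Among 50 sets of 5 arrays (25 members in 2 genotypes at E14.5), 1 held an array far from the others. Pkm in E14.5 mutant 3 had a log2 value of 8.37, against 8.43 to 8.46 in the other E14.5 mutants. Chance gives about 1 in 20 such sets, and the groups of 3 arrays at E13.5 were not examined.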

How the results depend on the processing

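No member was called in a genotype comparison under any of the alternatives, except Pfkfb3 at E13.5 with array quality weights (1 member lower) and Eno3 at E14.5 in batch 2 alone (1 member lower). Over all genes the number of calls moved by over 1.5 times, from 6 to 85 at E13.5 beside 11 and from 31 to 371 at E14.5 beside 292, and from 3 to 40 for the interaction beside 13 (3 to 20 without 1 array, the 3 without E13.5 mutant 3 or E13.5 control 2 or 3). The replicate block, which treats arrays of one number as paired, left the member medians at -0.075 and -0.018 and called 6 genes at E13.5 and 104 at E14.5. It ended the calls of P4ha1 (adjusted p 0.0563) and P4ha2 (adjusted p 0.0588). Of the other pathway genes called at E14.5, P4ha2 lost its call under 23 of 32 other settings, P4ha1 under 5 (with the mean over probe sets its adjusted p was 0.276), Emb under 5 of 31 (from the E14.5 arrays alone 0.0701) and Pgm1 under 1 of 32 (batch 1, adjusted p 0.137), with no change of sign. The median member difference at E13.5 was -0.009 with arrays centred on the median of the genes tested, and -0.093 to -0.061 without 1 array.

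Some values changed sign. Gapdh at E13.5 was 0.068 with the mean over probe sets, 0.047 with centring on the genes tested and -0.045 to 0.012 without 1 array. Hif1a at E13.5 was 0.029 with that centring. At E14.5 Eno3 was 0.087 in batch 1, Gapdh was -0.048 and Hif1a 0.073 in batch 2, and Hif1a was -0.047 to 0.022 without 1 array. The interaction of Gapdh was -0.001 with the mean over probe sets, -0.029 in batch 2 and -0.01 with centring on the genes tested. That of Hif1a was -0.024 with the mean over probe sets, -0.119 in batch 1, -0.063 with that centring, -0.001 without E14.5 controls 1 and 3, -0.002 with a term for the 5′ to 3′ signal of beta-actin, and -0.01 to 0.061 without 1 array.

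Stage differences followed the scale. In mutants, the members called higher and lower numbered 20 and 3 with median centring (median 1.538, beside 1.229 over all genes, of which 8904 and 1334 were called), and 13 and 8 with centring on the genes tested (median 0.25, beside -0.059 with 4186 and 4925). With quantile normalisation 7 were called lower (median 0.02), where 8593 of all genes were called in either direction. There 11 of 25 members were below 0, and 16 had an unadjusted p under 0.05 in limma in either direction. With a filter at 6 it was 9 lower (median -0.127), where 6097 of all genes were called. There 12 of 19 members were below 0, and 15 had an unadjusted p under 0.05 in limma in either direction. The median was -0.381 with no filter and -0.43 with the mean over probe sets. Leaving out 1 array gave 4 to 7 members higher, 11 to 15 lower and a median of -0.315 to -0.214, with 9124 to 9541 of all genes called. In controls the members called higher and lower numbered 20 and 3 (median 1.375, beside 1.117 over all genes with 8649 and 1522), 12 and 8 (median 0.209, beside -0.05 with 4267 and 4886) and 9 and 8 (median -0.047) under the same 3 scalings. Quantile normalisation called 8650 of all genes in controls. The median was -0.498 with no filter. Without 1 array it was 3 to 4 members higher and 14 to 16 lower, with 9341 to 9638 of all genes called. The cause was not tested. The 3 added alternatives were chosen after seeing the data. The groups held 3 arrays per genotype at E13.5 and 5 at E14.5. A member that was not called may still differ by an amount within its 95% interval.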
